A study of Homo sapiens with 16 samples.

Results

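Polysomal RNA of H69M cells with and without knockdown of EIF6 was compared across all genes with enough counts. The comparison takes 4 of the 16 libraries of the series, chosen by their labels alone: 2 libraries from H69M cells carrying an shRNA against EIF6 (sheIF6) and 2 from H69M cells carrying the control shRNA (shNTC). Of the 56832 gene names in the table, 23100 passed the filter on low counts and were tested. H69M is labelled as a line of small cell lung cancer cells, and each shRNA line was made by lentiviral infection and kept as a stable line. Both were grown in RPMI 1640 with 10% FBS. Polysomal RNA is the RNA recovered from sucrose gradient fractions that hold mRNAs with several ribosomes. The other 12 libraries are H69M cytoplasmic RNA and both fractions of H69, a second line with libraries of the same shRNA labels, and every group holds 2 libraries. The number of shRNA sequences against EIF6 and of clones behind each line is not given in the sources used here.

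eIF6 binds the large ribosomal subunit, helps it to mature in the nucleolus, and keeps it from joining the small subunit until it is released by SBDS and the GTPase EFL1. The level of an mRNA on polysomes depends both on how much of it the cytoplasm holds and on how much of that carries ribosomes. Small cell lung cancer is mostly neuroendocrine and marked by factors such as NEUROD1 and INSM1, and it also has non-neuroendocrine states with YAP1, REST and vimentin.

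The 4 libraries held 42553901 to 53208650 counts, within the 36005326 to 87269772 of the series. Levels are CPM, counts scaled to a common library size with TMM factors, and changes are log2 values of sheIF6 over shNTC from 1 edgeR fit of all 16 libraries. The 10 neuroendocrine markers summed to 221 and 522 CPM in sheIF6 libraries 1 and 2, against 230 and 638 CPM in shNTC libraries 1 and 2. The 8 non-neuroendocrine markers summed to 4233 and 5989 CPM in sheIF6, against 5717 and 5595 CPM in shNTC. On H69 polysomes the same lists summed to 3187 to 4027 CPM and to 96.2 to 269 CPM. Of the neuroendocrine markers, the adhesion molecule NCAM1 had 167 and 240 CPM in H69M sheIF6 and 197 and 205 CPM in H69M shNTC, close to its 197 to 237 CPM in H69. INSM1 was far higher in the H69M libraries numbered 2, at 155 CPM in sheIF6 and 256 CPM in shNTC. The 5 immune markers summed to 1.82 to 4.15 CPM over the 4 libraries. The 5 fibroblast markers summed to 60.7 and 70.2 CPM in sheIF6 and 39.4 and 63.7 CPM in shNTC, mostly LUM, with DCN at 0.134 to 0.681 CPM. A wider list of fibroblast markers, which includes collagens, summed to 10377 and 15840 CPM in sheIF6 and 9793 and 19470 CPM in shNTC. Most of that was COL1A1, at 10033 and 15496 CPM in sheIF6 and 9436 and 18951 CPM in shNTC. In bulk RNA, fewer cells of a type and less RNA per cell cannot be told apart.

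EIF6 (chr20:35278911-35284985, minus strand, GRCh38) was the target of the shRNA and stood lower in both knockdown libraries. Its level was 86.3 and 136 CPM in sheIF6 libraries 1 and 2, and 323 and 202 CPM in shNTC libraries 1 and 2. The groups did not overlap, and the knockdown mean was 42.4% of the control mean. The fitted change was -1.24 (SE 0.298), which did not pass after adjustment over all genes in edgeR (adjusted p = 0.204, and 0.0884 with the replicate number as a block within each line). SBDS, which takes part in the release of eIF6, had 53 and 72.0 CPM in sheIF6 and 71.7 and 88.5 CPM in shNTC, a change of -0.36 that did not pass (adjusted p = 0.713).

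In edgeR at an adjusted p of 0.05, 15 of 23100 genes (0.0649%) were called in polysomal RNA, 7 higher (0.0303%) and 8 lower (0.0346%) in sheIF6. At an unadjusted p under 0.05 there were 1882 genes. Within H69M, libraries with the same number deviated from their group means together, so the fit was also made with the replicate number as a block within each line. With that block 203 genes (0.879%) were called, 84 higher (0.364%) and 119 lower (0.515%), and all 15 were among them. The change of all genes centred on -0.013, with quartiles of -0.40 and 0.36.

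**Figure D1:**
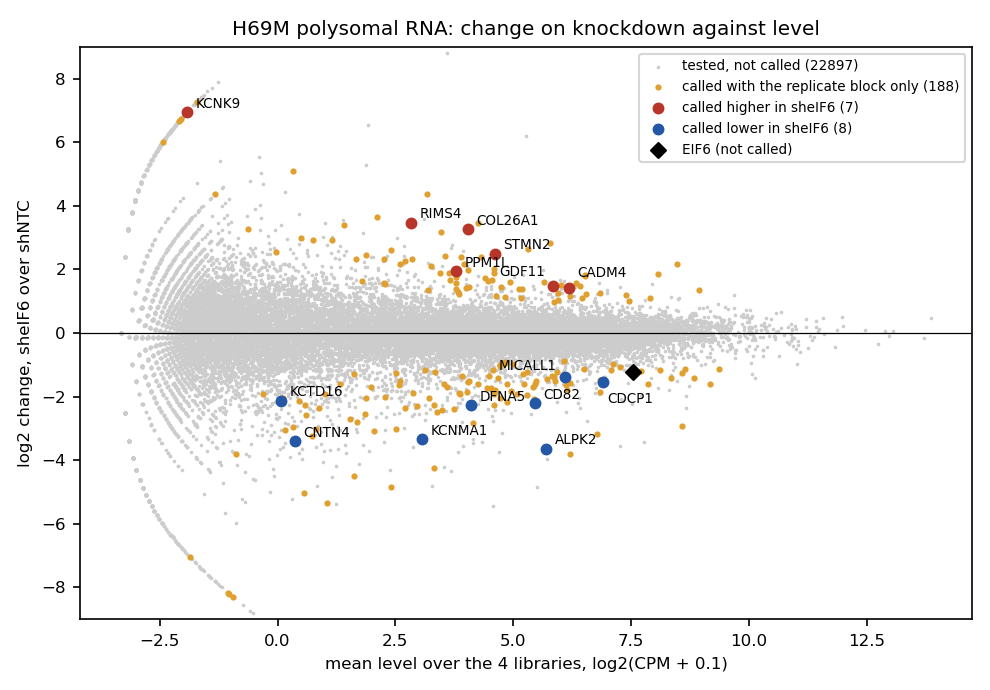
Log2 change of sheIF6 over shNTC in H69M polysomal RNA (vertical) against the mean level over the 4 libraries, log2 of CPM + 0.1 (horizontal), with 1 point a gene; 13 genes beyond 9 on the vertical axis are not shown. The 7 genes called higher and the 8 called lower stand well away from 0, while EIF6 at -1.24 lies among genes that were not called.

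The genes called higher in sheIF6 have varied roles. RIMS4 (chr20:44751808-44810338, minus strand), of the RIM family of presynaptic proteins, had 16 and 9.82 CPM in sheIF6 and 0.933 and 1.38 CPM in shNTC, an 11.2-fold higher mean (log2 3.48, SE 0.519, adjusted p = 0.0410). STMN2 (chr8:79610814-79666175, plus strand), a regulator of microtubules in growing axons, had 41.0 and 41.9 CPM in sheIF6 and 4.62 and 10.0 CPM in shNTC (log2 2.50, SE 0.390, adjusted p = 0.0449). Both knockdown libraries of each gene stood several times above both controls. COL26A1 (chr7:101362820-101559024, plus strand), a collagen chain of the extracellular matrix, had 29.1 and 30.4 CPM in sheIF6 and 2.55 and 3.57 CPM in shNTC (log2 3.28, SE 0.395, adjusted p = 0.0410). PPM1L (chr3:160755602-161078907, plus strand), a protein phosphatase of the endoplasmic reticulum membrane, had 24.9 and 18.9 CPM in sheIF6 and 4.34 and 6.97 CPM in shNTC (log2 1.95, SE 0.301, adjusted p = 0.0427). The groups of these genes stayed apart, as the rule for named genes requires. Within a group, the level of RIMS4 in sheIF6 and that of STMN2 in shNTC still differed clearly between libraries.

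GDF11 and CADM4 were more abundant than these and rose less. GDF11 (chr12:55743280-55757278, plus strand), a ligand of the TGF-beta superfamily, had 100.0 and 69.1 CPM in sheIF6 and 31.4 and 29.8 CPM in shNTC (log2 1.47, SE 0.223, adjusted p = 0.0410). CADM4 (chr19:43622368-43639839, minus strand), an immunoglobulin-type cell adhesion molecule, had 115 and 96.8 CPM in sheIF6 and 36.7 and 42.6 CPM in shNTC (log2 1.42, SE 0.192, adjusted p = 0.0329). KCNK9, a potassium leak channel, was the seventh call and falls outside the rule for named genes because of its low counts. It had 29 counts over the sheIF6 libraries and none over the shNTC libraries, which makes it at least 8.73-fold higher in CPM when set against a floor of 3 counts over the group.

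The genes called lower in sheIF6 hold membrane proteins, an ion channel and a gasdermin. ALPK2 (chr18:58481247-58628957, minus strand), an alpha-type protein kinase, had 7.61 and 7.88 CPM in sheIF6 and 118 and 74.0 CPM in shNTC, so that 8.06% of the control mean was left (log2 -3.63, SE 0.433, adjusted p = 0.0410). KCNMA1 (chr10:76869601-77638369, minus strand), the pore subunit of the large-conductance calcium-activated potassium channel, had 1.21 and 1.76 CPM in sheIF6 and 19.2 and 10.8 CPM in shNTC (log2 -3.33, SE 0.442, adjusted p = 0.0329). Both had a control library 1 well above control library 2, and the groups stayed apart, as the rule for named genes requires. DFNA5 (now GSDME, chr7:24698351-24758113, minus strand), the pore-forming gasdermin E, had 4.97 and 6.80 CPM in sheIF6 and 27.7 and 29.1 CPM in shNTC (log2 -2.27, SE 0.318, adjusted p = 0.0329). CD82 (chr11:44564427-44620363, plus strand), a tetraspanin known as a suppressor of metastasis, had 15.4 and 16.1 CPM in sheIF6 and 60.8 and 84.2 CPM in shNTC (log2 -2.20, SE 0.309, adjusted p = 0.0329). The replicates of these genes lay close together in the knockdown.

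CDCP1 (chr3:45082278-45146422, minus strand), a transmembrane substrate of Src kinases, had 60.3 and 61.2 CPM in sheIF6 and 182 and 174 CPM in shNTC (log2 -1.55, SE 0.217, adjusted p = 0.0329). MICALL1 (chr22:37905657-37942822, plus strand), which acts in endosomal recycling, had 39.9 and 36.4 CPM in sheIF6 and 103 and 95.3 CPM in shNTC (log2 -1.37, SE 0.199, adjusted p = 0.0399). Of the genes called lower, these changed least and were the most abundant. CNTN4, an axonal adhesion molecule, and KCTD16, an auxiliary subunit of GABA-B receptors, were also called and fall outside the rule for named genes because of their low counts. CNTN4 had 7 and 11 counts in sheIF6 and 91 and 81 counts in shNTC (log2 -3.39, adjusted p = 0.0329), and KCTD16 had 16 and 15 counts in sheIF6 and 54 and 69 counts in shNTC (log2 -2.13, adjusted p = 0.0449).

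**Figure D2:**
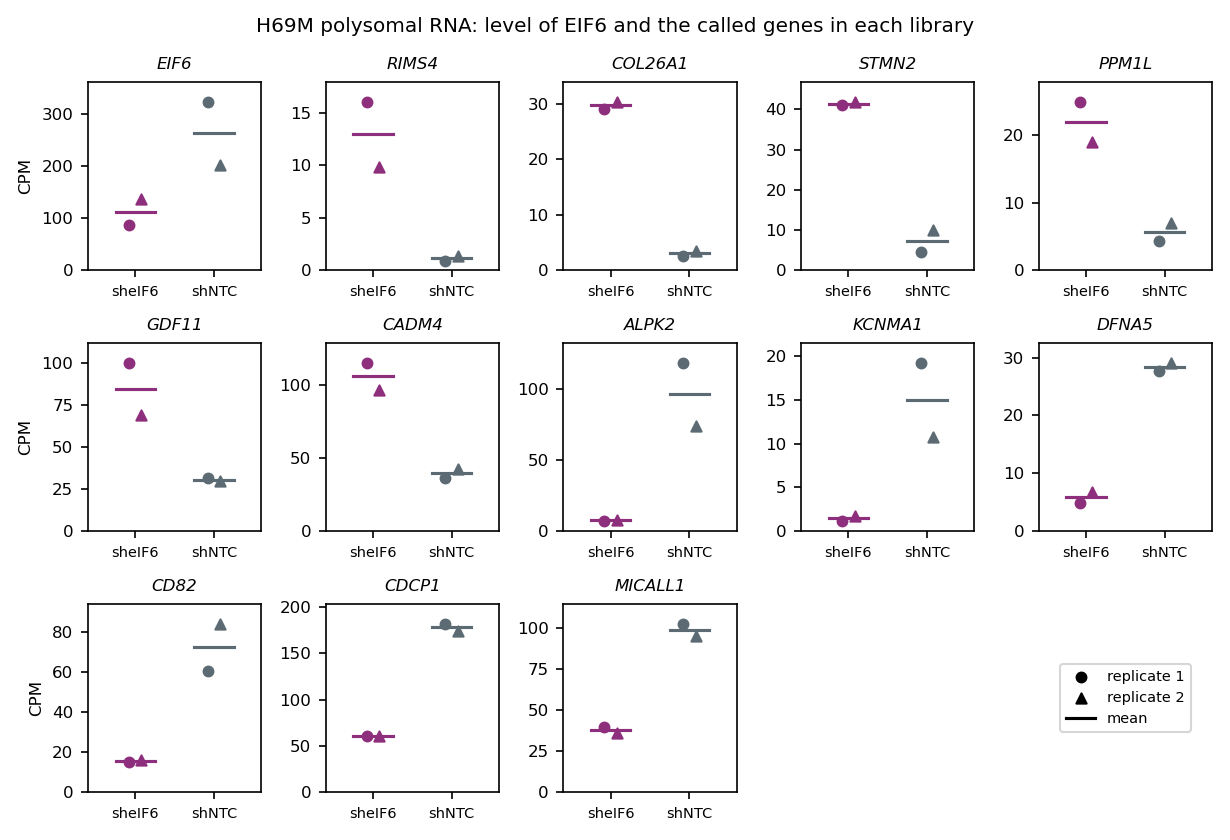
Level in CPM of EIF6 and of the 12 called genes named by the rule in each H69M polysomal library, with sheIF6 left of shNTC, circles for replicate 1, triangles for replicate 2 and a line at the mean. In every panel the groups do not overlap, as for CDCP1 with 60.3 and 61.2 CPM in sheIF6 and 182 and 174 CPM in shNTC. The rule requires this of the 12 called genes and not of EIF6.

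With 2 libraries a group the calls rest on each library. Without 1 of the 4 libraries, 0 to 4 genes were called, and of the 15 only KCNMA1 passed in any of these fits, without shNTC replicate 2. The 12 named genes kept their direction in each of these fits, with changes of 1.18 to 3.79 for those called higher and -3.93 to -1.31 for those called lower.

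The genes next in order did not pass without the block and passed with it. PI4KA, a phosphatidylinositol 4-kinase, had 203 and 264 CPM in sheIF6 and 106 and 99.9 CPM in shNTC (log2 1.18, adjusted p = 0.0526, and 0.0175 with the block). Pseudogenes nearly identical to PI4KA lie on the same chromosome, so its level is uncertain. NKD2, which binds Dishevelled and dampens Wnt signalling, had 5.8 and 3.50 CPM in sheIF6 and 0.505 and 0.378 CPM in shNTC (log2 3.39, adjusted p = 0.0625, and 0.00991 with the block). CGNL1, a protein of tight junctions, had 166 and 121 CPM in sheIF6 and 35.7 and 46.9 CPM in shNTC (log2 1.80, adjusted p = 0.0649, and 0.0111 with the block). KIAA0319, SP9 and FBXO41 showed the same pattern, with log2 values of 1.89, 2.40 and 1.76 (adjusted p = 0.0175, 0.0111 and 0.0187 with the block). On the other side, CELSR1, a cadherin of planar cell polarity, had 16 and 17.0 CPM in sheIF6 and 81.6 and 57.9 CPM in shNTC (log2 -2.08, adjusted p = 0.0625, and 0.0134 with the block). IL2RG, the common gamma chain of interleukin receptors, had 0.673 and 0.892 CPM in sheIF6 and 6.43 and 4.48 CPM in shNTC (log2 -2.80, adjusted p = 0.0763, and 0.0129 with the block). ANXA8, SLC22A4, SERPINE2 and STK10 were also lower with the block, at -4.50, -1.93, -1.15 and -1.39 (adjusted p = 0.0134, 0.0195, 0.0220 and 0.0111 with the block), and ANXA8 shares reads with a near-identical copy.

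Among the 188 genes called only with the block, 4 were chosen after their values were seen, for the smallest blocked p among genes with a mean of at least 500 counts in 1 group. STC2, the secreted glycoprotein stanniocalcin 2, had 120 and 57.7 CPM in sheIF6 and 1044 and 307 CPM in shNTC (log2 -2.93, adjusted p = 0.214, and 0.00296 with the block). TRIL, an accessory of Toll-like receptors, had 55.9 and 80.5 CPM in sheIF6 and 6.0 and 15.9 CPM in shNTC (log2 2.64, adjusted p = 0.215, and 0.00336 with the block). FRZB, a secreted Wnt antagonist, had 78.1 and 115 CPM in sheIF6 and 11.9 and 15.5 CPM in shNTC (log2 2.82, adjusted p = 0.0926, and 0.00596 with the block). In STC2, TRIL and FRZB the level differed between replicate numbers in the same direction in both groups. NPTX1, a secreted neuronal pentraxin, had 18.6 and 0.937 CPM in sheIF6 and 265 and 10.2 CPM in shNTC (log2 -3.82, adjusted p = 0.661, and 0.00826 with the block). Its level was also higher in library 1 of both groups, and the groups overlapped. Its sheIF6 library 2 stood below both controls, while sheIF6 library 1 stood below shNTC library 1 and above shNTC library 2.

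The called genes were also read in control H69 cells, the other line. This reading is not independent of the calls, because it uses H69M control cytoplasm. Its libraries deviated together with those of H69M control polysomes (r = 0.578). A gene that is low in the H69M controls is thus favoured both for a call as higher and for a high ratio of H69 over H69M. Whether the shares below exceed that tilt was not tested. Of the 7 genes called higher, 4 stood over 5 times higher in control cytoplasmic RNA of H69 than of H69M, against 12.4% of all genes tested. Of the 8 genes called lower, 5 stood over 5 times higher in control cytoplasmic RNA of H69M than of H69, against 12.8% of all genes tested. On the opposite sides stood 1 of the 7 called higher and 2 of the 8 called lower. With the block, 40.5% of the 84 genes called higher were over 5 times higher in H69, and 15.5% were so in H69M. Of the 119 called lower with the block, 31.9% were over 5 times higher in H69M and 19.3% in H69. STMN2 had 174 and 106 CPM and PPM1L 32.4 and 28.1 CPM in H69 shNTC polysomes, while ALPK2 and COL26A1 had no count there. A set of H69 genes was used to read how much of that line's signal the H69M libraries held. It took genes with at least 10 CPM in H69 control cytoplasm and under 1% of that in H69M control cytoplasm. The 45 of them with at least 10 CPM on H69 control polysomes summed to 0.903% and 3.76% of their H69 control level in sheIF6 libraries 1 and 2, and to 0.860% and 5.59% in shNTC libraries 1 and 2. The median over these genes was 0.743% and 2.89% in sheIF6 libraries 1 and 2, and 0.262% and 4.58% in shNTC libraries 1 and 2. These genes were thus higher in the libraries numbered 2 of both groups. The sheIF6 library stood above its control in the pair numbered 1, further by the median than by the sum, and below it in the pair numbered 2. Without genes over 5 times higher in H69 by that measure, 9 genes were called, and they were the 9 of the 15 that remained in the test.

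Genes were next grouped into 42 lists by pathway, complex or cell type. No list had more than 1 member called without the block. The lists differ in how far their medians lie from that of all genes, and in whether the 2 numbered pairs of libraries gave the same value.

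**Figure D3:**
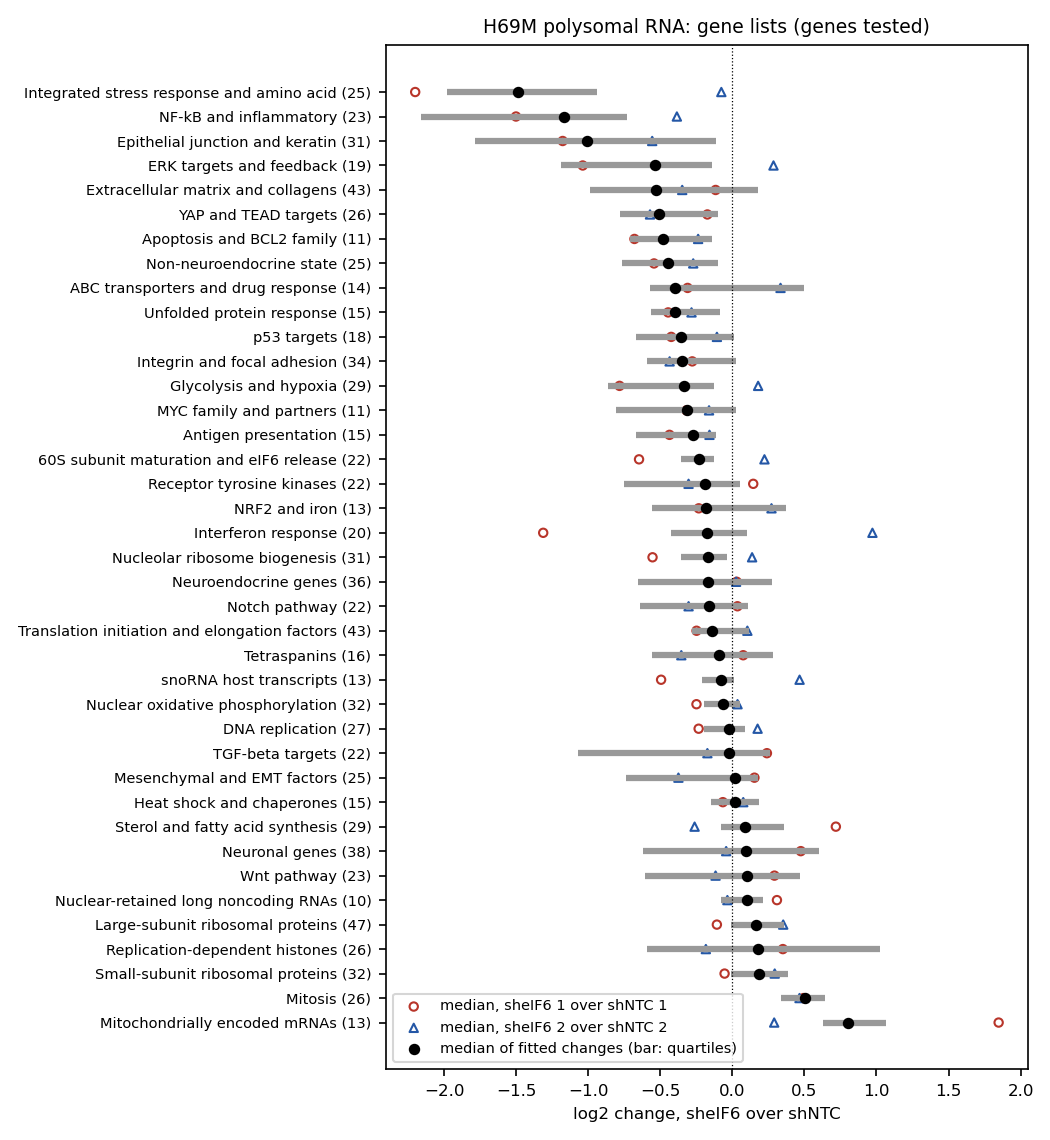
Median log2 change of sheIF6 over shNTC in H69M polysomal RNA for 39 gene lists, with the number of genes tested in brackets, black points for the median of fitted changes, bars for quartiles, and open symbols for the medians of sheIF6 1 over shNTC 1 (circles) and sheIF6 2 over shNTC 2 (triangles). The integrated stress response list is lowest at -1.49 with pair medians of -2.20 and -0.076, and the mitosis list has nearly equal pair medians of 0.49 and 0.47.

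Integrated stress response and amino acid genes are switched on by the factor ATF4 when translation initiation is restrained through eIF2. All 25 listed genes were tested, and their median change was -1.49 against -0.013 for all genes, with 23 of 25 below 0 and none called without the block. ATF4 itself had 117 and 135 CPM in sheIF6 and 688 and 143 CPM in shNTC (log2 -1.72, SE 0.601, adjusted p = 0.459). CHAC1, an enzyme that degrades glutathione, had 3.16 and 2.65 CPM in sheIF6 and 60.5 and 4.05 CPM in shNTC (log2 -3.47, adjusted p = 0.453). ASNS, asparagine synthetase, had 49.9 and 79.5 CPM in sheIF6 and 559 and 46.1 CPM in shNTC (log2 -2.23, adjusted p = 0.653). For these genes shNTC library 1 stood far above the other 3 libraries, which were close together. The pair of libraries numbered 1 gave a median of -2.20 and the pair numbered 2 a median of -0.076, and without shNTC replicate 1 the list's median was -0.0095. SLC7A5, the light chain of the large neutral amino acid transporter, did not follow library 1 alone, with 470 and 347 CPM in sheIF6 and 850 and 959 CPM in shNTC (log2 -1.15, SE 0.239, adjusted p = 0.145). It was the one member called with the block (adjusted p = 0.0394), where 0.515% of all genes tested were lower. SLC3A2, the heavy chain that pairs with it, had 483 and 746 CPM in sheIF6 and 2222 and 1045 CPM in shNTC (log2 -1.41, adjusted p = 0.315).

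Promoters of 2 of these genes are shown because they carry the C/EBP-ATF response element, the site that ATF4 is known to bind. It was searched as TGATGNAA on both strands, from 250 bases before to 50 after the start site, in RefSeq promoters of GRCh38.p14. Of the 21 listed genes with a promoter in that table, 5 held a match (23.8%), against 3.67% of all 27305 promoters. The list was made of genes of this response, so a higher share is favoured by that choice and is no result of these data. Of the 8 genes called lower 1 held a match (12.5%), and of the 4 called higher with a promoter 0 did. Below are the 250 bases before each start, 5′ to 3′ on the gene's strand, with the match in capitals. For ASNS they span chr7:97872409-97872658 (minus strand, match from -68 to -61), and for CHAC1 chr15:40953221-40953470 (plus strand, match on the opposite strand from -209 to -202).
ASNS: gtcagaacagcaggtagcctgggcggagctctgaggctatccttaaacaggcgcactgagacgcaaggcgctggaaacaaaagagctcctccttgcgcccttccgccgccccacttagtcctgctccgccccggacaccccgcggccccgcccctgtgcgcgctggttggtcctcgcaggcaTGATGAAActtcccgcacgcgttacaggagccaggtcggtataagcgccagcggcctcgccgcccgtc
CHAC1: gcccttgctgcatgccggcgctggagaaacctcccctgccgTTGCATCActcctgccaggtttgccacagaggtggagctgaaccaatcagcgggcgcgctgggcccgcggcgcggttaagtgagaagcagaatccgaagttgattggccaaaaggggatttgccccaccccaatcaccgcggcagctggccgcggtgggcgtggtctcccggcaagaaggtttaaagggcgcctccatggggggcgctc

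NF-kB and inflammatory genes, which include the NF-kB subunits, their inhibitors and the cytokines and chemokines they induce, had fitted changes on one side of 0. Of 24 listed genes 23 were tested, all 23 had a fitted change below 0 and none was called with or without the block. The median was -1.17. In 15 of the 23 both knockdown libraries stood below both controls, where 16.7% of all genes tested did so. NFKB2, the p100 precursor, had 31.3 and 51.7 CPM in sheIF6 and 99.6 and 87.1 CPM in shNTC (log2 -1.17, SE 0.260, adjusted p = 0.166). TNFAIP3, the ubiquitin-editing inhibitor of the pathway, had 23.0 and 16.5 CPM in sheIF6 and 65.4 and 36.6 CPM in shNTC (log2 -1.37, SE 0.374, adjusted p = 0.269). CSF1, the macrophage growth factor, had 43.2 and 53.3 CPM in sheIF6 and 100.1 and 83.4 CPM in shNTC (log2 -0.93, adjusted p = 0.205). These regulators did not overlap between the groups, whereas several chemokines were high in shNTC library 1 only. CXCL8, a neutrophil chemokine, had 0.279 and 0.692 CPM in sheIF6 and 4.77 and 0.302 CPM in shNTC. CCL2, a monocyte chemokine, had 32.3 and 24.7 CPM in sheIF6 and 110 and 23.8 CPM in shNTC. The numbered pairs gave list medians of -1.50 and -0.38, and without shNTC replicate 1 the list's median was -0.34.

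Promoters of NFKB1, the p105 precursor, and of TNFAIP3 are shown because each carries a kappaB site, the element bound by NF-kB. The first 9 bases of its common form were searched as GGGANNTNC on both strands of the same windows. Of the 20 listed genes with a promoter, 10 held a match (50%), against 16.5% of all promoters. This list too was made of genes of the pathway, so a higher share is favoured by that choice. Of the 8 genes called lower 1 held a match (12.5%), and of the 4 called higher with a promoter 1 did (25%). NFKB1 itself had 46.3 and 47.4 CPM in sheIF6 and 105 and 71.1 CPM in shNTC (log2 -0.91, adjusted p = 0.401). The 250 bases before each start follow, with matches in capitals, for NFKB1 from chr4:102501109-102501358 (plus strand, match from -49 to -41) and for TNFAIP3 from chr6:137867009-137867258 (plus strand, matches on the opposite strand from -66 to -58 and from -55 to -47).
NFKB1: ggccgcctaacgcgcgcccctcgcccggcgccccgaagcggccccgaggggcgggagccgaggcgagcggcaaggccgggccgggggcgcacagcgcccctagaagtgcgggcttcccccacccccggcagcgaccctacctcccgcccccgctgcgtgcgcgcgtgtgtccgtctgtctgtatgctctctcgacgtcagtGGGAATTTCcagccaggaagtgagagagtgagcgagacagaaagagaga
TNFAIP3: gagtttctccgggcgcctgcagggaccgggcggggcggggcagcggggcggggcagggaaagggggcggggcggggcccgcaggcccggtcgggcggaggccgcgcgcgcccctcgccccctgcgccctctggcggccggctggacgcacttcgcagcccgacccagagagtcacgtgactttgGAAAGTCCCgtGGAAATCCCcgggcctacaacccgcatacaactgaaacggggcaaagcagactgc

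Epithelial junction and keratin genes had a median change of -1.01 over 31 tested of 32 listed, with pair medians of -1.18 and -0.56. Without sheIF6 replicate 1 the median was -0.59, and without sheIF6 replicate 2 it was -1.56. None was called without the block. With the block 5 were lower and 1 was higher, where 0.515% and 0.364% of all genes tested were. OCLN, occludin of tight junctions, had 4.90 and 6.43 CPM in sheIF6 and 13.3 and 21.3 CPM in shNTC (log2 -1.61, adjusted p = 0.194, and 0.0386 with the block). DSG2, a desmosomal cadherin, had 10.0 and 10.1 CPM in sheIF6 and 32.4 and 43.9 CPM in shNTC (log2 -1.92, adjusted p = 0.269, and 0.0402 with the block). CDH1, the epithelial cadherin, had 2.46 and 3.23 CPM in sheIF6 and 8.30 and 9.52 CPM in shNTC (log2 -1.64, adjusted p = 0.452, and 0.0407 with the block). The remaining lower members were the placental cadherin CDH3 and the membrane protease ST14, at -1.60 and -1.22 (adjusted p = 0.0314 and 0.0447 with the block). DSP, desmoplakin, which ties desmosomes to intermediate filaments, went the other way. It had 89.4 and 101 CPM in sheIF6 and 24.5 and 41.6 CPM in shNTC (log2 1.52, adjusted p = 0.164, and 0.0101 with the block). The abundant simple keratins KRT8 and KRT18 had fitted changes of 0.20 and 0.32 and overlapped between the groups.

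**Figure D4:**
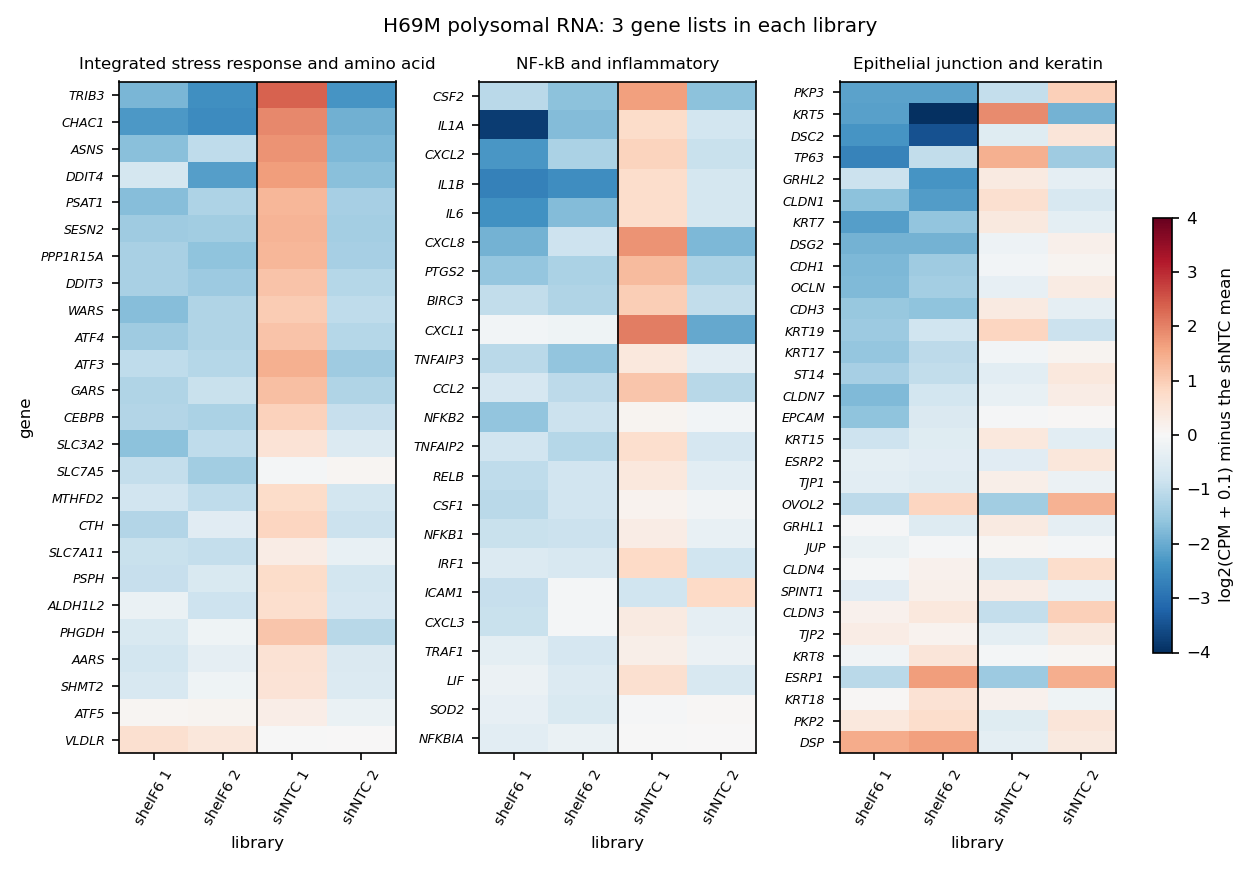
Level of each tested member of 3 gene lists in the H69M polysomal libraries, as log2 of CPM + 0.1 minus the mean of the shNTC libraries, with sheIF6 libraries left of the line and shNTC libraries right of it; red is higher and blue is lower. In the stress response list shNTC library 1 is red for most genes, while SLC7A5 and many epithelial genes are blue in both sheIF6 libraries.

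Extracellular matrix genes had a median change of -0.53 over 43 tested of 44 listed, with none called without the block, and 5 lower and 1 higher with it, against 0.515% and 0.364% of all genes. Without shNTC replicate 2 the list's median was 0.087, and without 1 of the other libraries it was -0.61 to -0.38. COL12A1, a collagen on the surface of fibrils, had 18.7 and 24.7 CPM in sheIF6 and 90.4 and 304 CPM in shNTC (log2 -3.18, adjusted p = 0.173, and 0.00991 with the block). TNC, tenascin C, had 119 and 109 CPM in sheIF6 and 460 and 235 CPM in shNTC (log2 -1.61, adjusted p = 0.268, and 0.0402 with the block). The others were COL7A1 of anchoring fibrils and the membrane collagens COL17A1 and COL13A1, at -1.78, -3.24 and -3.00 (adjusted p = 0.0298, 0.0278 and 0.0294 with the block). COL5A2, a chain of fibril-forming collagen V, was higher with the block at 1.37 (adjusted p = 0.692, and 0.0111 with the block). It had 413 and 994 CPM in sheIF6 and 170 and 376 CPM in shNTC, so its groups did not overlap but its level differed by number in both. The most abundant collagens, COL1A1 and COL1A2, had changes of -0.15 and 0.47 with overlapping groups.

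Integrin and focal adhesion genes had a median of -0.35 over 34 tested, with 2 lower with the block, against 0.515% of all genes, and none without. Without shNTC replicate 2 the median was -0.17. One of the called genes, FERMT2 (kindlin-2), which activates integrins, had 251 and 254 CPM in sheIF6 and 623 and 475 CPM in shNTC (log2 -1.12, adjusted p = 0.152, and 0.0475 with the block). ITGA6 had 13.0 and 12.2 CPM in sheIF6 and 24.5 and 17.9 CPM in shNTC and did not pass either way (log2 -0.75, adjusted p = 0.549, and 0.347 with the block). Its partner ITGB4 overlapped between the groups, with 14.9 and 12 CPM in sheIF6 and 28.3 and 10.1 CPM in shNTC.

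Genes of the non-neuroendocrine state had a median of -0.45 over 25 tested, with 2 lower with the block, against 0.515% of all genes. CD44, the hyaluronan receptor, had 235 and 215 CPM in sheIF6 and 673 and 410 CPM in shNTC (log2 -1.27, SE 0.521, adjusted p = 0.557, and 0.0255 with the block). PLAU, the urokinase protease, had 55.5 and 44.4 CPM in sheIF6 and 266 and 92.9 CPM in shNTC (log2 -1.84, adjusted p = 0.267, and 0.0312 with the block). YAP1 stood below both controls in both knockdown libraries, with 157 and 123 CPM in sheIF6 and 261 and 196 CPM in shNTC, and did not pass (log2 -0.71, adjusted p = 0.823, and 0.629 with the block). VIM, at 3010 and 4688 CPM in sheIF6 and 3394 and 3805 CPM in shNTC, overlapped between the groups. Targets of YAP and TEAD had a median of -0.51 over 26 tested, with none called in either fit and a median of -0.30 without shNTC replicate 2. ERK targets had a median of -0.54 over 19 tested, with 2 lower with the block, against 0.515% of all genes. These were CCND1 (cyclin D1) and EPHA4 (an ephrin receptor), at -1.46 and -1.23. Without shNTC replicate 1 the list's median was 0.39. CCND1 had 25.8 and 29.9 CPM in sheIF6 and 65.7 and 87.2 CPM in shNTC (log2 -1.46, adjusted p = 0.269, and 0.0334 with the block), and EPHA4 had an adjusted p of 0.418 without the block and 0.0175 with it in edgeR.

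Neuroendocrine genes lay on both sides of 0. Of 37 listed genes 36 were tested, with a median of -0.17, and STMN2, described above, was the one called without the block. With the block CPE, a prohormone-processing carboxypeptidase, was higher and GRP, the gastrin-releasing peptide, was lower. Of all genes tested, 0.364% were higher and 0.515% lower with the block. CPE had 130 and 195 CPM in sheIF6 and 31.3 and 104 CPM in shNTC (log2 1.26, adjusted p = 0.511, and 0.0366 with the block). GRP was near the bottom of the range, with 0.255 and 0.268 CPM in sheIF6 and 0.832 and 3.27 CPM in shNTC (log2 -2.96, adjusted p = 0.461, and 0.0387 with the block). The lineage factor INSM1 had 23.9 and 155 CPM in sheIF6 and 6.38 and 256 CPM in shNTC. CHGA, chromogranin A, had 1.67 and 22.9 CPM in sheIF6 and 1.87 and 26.2 CPM in shNTC. Both followed the replicate number and overlapped between the groups, and the list's median was 1.26 without shNTC replicate 2 and -1.02 without sheIF6 replicate 2. Among 38 neuronal genes, with a median of 0.10 that ran from -0.30 to 0.90 without 1 library at a time (lowest without sheIF6 replicate 2, highest without shNTC replicate 2), MAP2 of dendritic microtubules was higher and the adhesion molecule L1CAM lower with the block. MAP2 had 89.5 and 113 CPM in sheIF6 and 33.9 and 55.8 CPM in shNTC (log2 1.18, adjusted p = 0.354, and 0.0475 with the block). L1CAM had 216 and 283 CPM in sheIF6 and 460 and 871 CPM in shNTC (log2 -1.42, adjusted p = 0.166, and 0.0138 with the block).

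Mitosis genes had a median of 0.51 over 26 tested, with 22 above 0 and none called in either fit. The numbered pairs gave nearly equal medians of 0.49 and 0.47. CENPF, a kinetochore protein, had 201 and 233 CPM in sheIF6 and 115 and 132 CPM in shNTC (log2 0.81, SE 0.247, adjusted p = 0.352, and 0.0976 with the block). TOP2A, topoisomerase II alpha, had 360 and 409 CPM in sheIF6 and 247 and 268 CPM in shNTC (log2 0.58, adjusted p = 0.552). For 8 of the 26 both knockdown libraries stood above both controls, where 15.9% of all genes tested did so. Leaving out 1 library moved the list's median between 0.055 and 0.88, the lowest without sheIF6 replicate 2 and the highest without shNTC replicate 2. DNA replication genes had a median of -0.026 over 27 tested.

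mRNAs made in mitochondria are translated by mitochondrial ribosomes and not by cytoplasmic ones. The 13 such mRNAs took 1.08% and 1.40% of the counts in sheIF6 libraries 1 and 2, and 0.300% and 1.19% in shNTC libraries 1 and 2. They had a median change of 0.80 with none called, and pair medians of 1.85 and 0.29. The low value lay in shNTC library 1, the library that also held the high stress response and chemokine levels. Without that library the median of these mRNAs was 0.13, beside -0.0095 for the stress response list and -0.34 for the NF-kB list. Interferon response genes had pair medians on opposite sides of 0, at -1.31 in pair 1 and 0.97 in pair 2, and none of the 20 was called.

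Genes for the translation machinery had none called in either fit. The median change was 0.16 for 47 large-subunit and 0.19 for 32 small-subunit ribosomal protein genes. It was -0.14 for 43 initiation and elongation factors and -0.17 for 31 nucleolar biogenesis genes. In H69M cytoplasmic RNA the medians of these lists were 0.75, 0.84, 0.17 and -0.042, in the same order. The difference between fractions was not tested for lists. Ribosomal protein genes have many near-identical pseudogenes, so reads can be split between them. Without 1 library at a time the polysomal medians ran from -0.19 to 0.46, -0.28 to 0.41, -0.33 to 0.084 and -0.50 to 0.10. Each was lowest without sheIF6 replicate 2 and highest without sheIF6 replicate 1. Among 22 genes of large-subunit maturation and eIF6 release, with a median of -0.23 and -0.56 without sheIF6 replicate 2, none was called. EIF6 had the lowest fitted change of them, followed by RSL24D1, a late large-subunit assembly factor, with 54.0 and 54.1 CPM in sheIF6 and 171 and 51.5 CPM in shNTC. The partners EFL1 and NMD3 had changes of -0.11 and -0.15.

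In the remaining lists a few members passed with the block, where 0.364% of all genes tested were higher and 0.515% lower. WNT7B, a Wnt ligand, had 5.18 and 3.50 CPM in sheIF6 and 39.6 and 22.3 CPM in shNTC (log2 -2.83, adjusted p = 0.167, and 0.0111 with the block). HERPUD1, of endoplasmic reticulum-associated degradation, had 35.3 and 26 CPM in sheIF6 and 114 and 60.7 CPM in shNTC (log2 -1.52, adjusted p = 0.323, and 0.0111 with the block). ID2, an inhibitor of helix-loop-helix factors and a TGF-beta family target, was lower with the block at -1.17 (adjusted p = 0.0298). Tetraspanins were called on both sides of 0, since TSPAN7 was higher with the block at 112 and 149 CPM in sheIF6 against 42.3 and 69 CPM in shNTC (log2 1.23, adjusted p = 0.0184 with the block), while CD82 was lower. MYC had 14.0 and 16.9 CPM in sheIF6 and 47.5 and 21.2 CPM in shNTC and did not pass (log2 -1.15, adjusted p = 0.498, and 0.260 with the block). Medians of the lists for p53 targets, glycolysis and hypoxia, antigen presentation, Notch, sterol synthesis, histones, heat shock, NRF2, BCL2 family, receptor kinases, MYC partners, ABC transporters, nuclear long noncoding RNAs, snoRNA hosts, nuclear oxidative phosphorylation and mesenchymal factors lay between -0.48 and 0.18, with no member called in either fit. The wider lists of fibroblast, immune and endothelial markers had medians of -0.054, 0.24 and 0.49, also with none called.

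Whether the changes on polysomes differed from those in cytoplasmic RNA was tested as the difference of the 2 knockdown changes in H69M. No gene passed (0 of 23100, 0%), with 392 at an unadjusted p under 0.05, and the block also gave 0, with 562 unadjusted. DESeq2 called 1 gene and limma-voom 0. In cytoplasmic RNA 36 genes were called (0.156%), 11 of which were among the 15 polysomal calls, or 73.3% of the polysomal and 30.6% of the cytoplasmic list. All 15 had the same sign in both fractions, with a cytoplasmic unadjusted p under 0.05. The 2 fractions are not independent readings, because their same-numbered libraries deviated together. The correlation was r = 0.578 between the shNTC groups and r = 0.172 between the sheIF6 groups. How much of the overlap comes with that was not tested. With the block 134 genes were shared by the 203 polysomal and 268 cytoplasmic calls (1.16%), or 66.0% and 50% of them. ALPK2 changed by -3.63 on polysomes and -3.68 in cytoplasm, COL26A1 by 3.28 and 3.27, and CDCP1 by -1.55 and -1.58. The largest gap among the 15 was that of KCNMA1, at -3.33 on polysomes and -2.27 in cytoplasm, a difference of -1.06 (unadjusted p = 0.0881). EIF6 was at -1.24 and -0.52, a difference that did not pass (-0.72, unadjusted p = 0.106). The absence of a call does not show that the fractions changed alike, since 2 libraries a group leave wide errors, such as an SE of 0.584 for the difference of COL26A1.

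**Figure D5:**
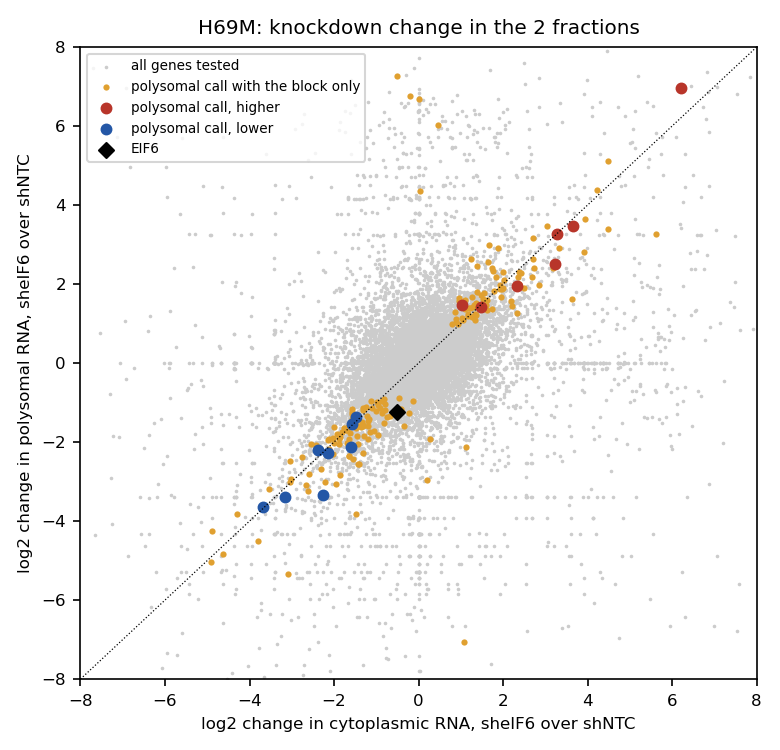
Log2 change of sheIF6 over shNTC in H69M polysomal RNA (vertical) against that in H69M cytoplasmic RNA (horizontal), with 1 point a gene and a dotted line where they are equal; 35 genes beyond 8 on either axis are not shown. The 15 polysomal calls lie near the line, such as ALPK2 at -3.63 and -3.68, and EIF6 lies at -1.24 and -0.52.

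The polysomal change in H69M was also set against that in H69. In H69, 1 gene was called on polysomes (0.00433%), and the difference between the lines passed for 1 gene (0.00433%), or for 37 (0.16%) with the block, and for 112 by DESeq2 and 0 by limma-voom. That gene was HMCN1, hemicentin 1, a large extracellular protein. It had 135 and 139 CPM in H69M sheIF6 and 94.6 and 70.2 CPM in H69M shNTC, where the change of 0.73 did not pass (adjusted p = 0.609). In H69 it had 0.0505 and 0.0731 CPM in sheIF6 and 2.00 and 2.18 CPM in shNTC (log2 -5.02, adjusted p = 0.00803). The H69 sheIF6 levels lay near the bottom of the range, so the H69 change and the line difference rest on few reads there. The difference between the lines was 5.75 (SE 0.630, adjusted p = 0.0139), and it did not pass in 4 of the 8 edgeR fits that leave out 1 library. Of the named calls, RIMS4, KCNMA1, DFNA5, CADM4 and CDCP1 differed between the lines with the block (adjusted p = 0.0379, 0.0379, 0.0345, 0.0269 and 0.0379) and not without it (0.187, 0.173, 0.103, 0.0688 and 0.141). In H69 polysomes their changes were -0.23, -0.07, 0.96, -0.52 and 0.32, none of which passed. ALPK2 and COL26A1 had no count in any H69 polysomal library, so that their line difference could not be fitted.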

How the data were processed

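Cytoplasmic and polysomal RNA of H69 and H69M cells with an shRNA against EIF6 or a control shRNA was sequenced, 2 libraries in each of 8 groups. Values deposited by the authors are raw read counts for each gene name. Per the submitters' processing notes, STAR and HTSeq were used with GRCh38. Versions, annotation release and strand setting are not given in the sources used here, so overlapping and antisense genes, near-identical copies and pseudogenes can share reads. Cycloheximide was in the lysis buffer of the cytoplasmic RNA, per the labels' protocols. Gene positions are from GENCODE v29 (GRCh38) by name, and 29502 names matched 1 gene.

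The counts were fitted in R 4.3.3 with edgeR 4.0.16: filterByExpr with a minimum count of 10, TMM scaling, 1 mean for each of the 8 groups over all 16 libraries, a robust quasi-likelihood fit with 8 residual degrees of freedom, and Benjamini-Hochberg adjustment over 23100 genes with a limit of 0.05. SE was obtained by dividing the absolute log2 change by the root of the F statistic. The fit was also run on simulated counts, drawn for each library separately with the fitted dispersions. The draws held no shared deviations of same-numbered libraries, so they cannot show whether the calls hold under these. Levels are CPM on TMM-scaled library sizes, and SDs were not used where both libraries are printed. Pair medians used log2 of CPM + 0.1.

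Libraries of a group are numbered 1 and 2 in the labels. Whether they come from separate cultures is not stated. The p-values reflect the spread between libraries of a group, pooled over all 8 groups of the series, and this spread may be technical. It is not the spread of the H69M polysomal libraries alone. Within H69M, deviations from the group means correlated between same-numbered libraries (r = 0.172 to 0.578 over 6 pairs of groups), and between the lines they did not (r = -0.107 to 0.0457). The labels do not state pairing. Blocked values (replicate number as a block within each line) are therefore printed as well where a named gene's call differs or a count shifts by over 1.5 times. Replicates differed by 132 and 244 times the variance expected from counting in the sheIF6 and shNTC polysomal groups of H69M. Over the 8 groups this ran from 24.8 in H69 sheIF6 cytoplasm to the 244 of the H69M shNTC polysomal group, so the pooled spread draws on tighter groups. Floors and bounds cover counting error only.

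Named genes are EIF6, up to 12 in each direction with the largest change among those called, provided that the group with the larger mean averages at least 100 raw counts and the libraries of both groups stay apart, filled by smallest p, plus a fixed panel and up to 4 members of each of 42 gene lists. The members and lists were chosen with earlier results of these data known. List medians are descriptions without a test. Values of some single genes are not reported here. The letters searched for the kappaB site were shortened from 10 to 9 after matches of the longer form had been seen. The alternatives were RLE scaling, total library size alone, no filter, a stricter filter (50 counts or more in 2 libraries or more), limma-voom (limma 3.58.1), DESeq2 1.42.0, H69M alone, the replicate block, the block in H69M alone, leaving out genes over 5 times higher in H69, removing genes of mitochondrial and ribosomal RNA, and dropping 1 library at a time. In that last case a lone library is taken to vary as much as libraries elsewhere in the series.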

Additional observations from a re-analysis of the deposited data

Results flagged for a closer look

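HMCN1, hemicentin 1, stood out because its polysomal knockdown change differed between H69M and H69 by a test of the difference itself. The difference was 5.75 on the log2 scale (edgeR, SE 0.630, adjusted p = 0.0139, and 0.0116 with the replicate block). It did not pass by limma-voom (adjusted p = 0.324), nor in 4 of the 8 edgeR fits that leave out 1 library, which were those without H69 sheIF6 replicate 1, H69 sheIF6 replicate 2, H69 shNTC replicate 2 or H69M sheIF6 replicate 1, with an adjusted p of up to 0.117. Both H69M sheIF6 libraries stood above both H69M shNTC libraries, and both H69 sheIF6 libraries stood below both H69 shNTC libraries, where its level was at most 2.18 CPM. Its H69 sheIF6 levels of 0.0505 and 0.0731 CPM lay near the bottom of the range, so the difference rests on few reads there.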

How the results depend on the processing

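The count of 15 calls (7 higher, 8 lower) was 16 with RLE scaling, 20 without the filter, 16 with the stricter filter and 16 without mitochondrial and ribosomal RNA genes, each time with all 15 among them. It was 0 with total library size alone (0 higher, 0 lower) and 0 with H69M libraries alone (0 and 0), with 1857 and 1493 genes at an unadjusted p under 0.05. DESeq2 called 336 (136 higher, 200 lower) and limma-voom 42 (18 higher, 24 lower), of which 15 and 11 were among the 15. The replicate block within each line gave 203 (84 higher, 119 lower), and with H69M libraries alone 58 (21 higher, 37 lower), holding 8 of the 15. Without genes over 5 times higher in H69 there were 9 (3 higher). Without 1 library at a time the counts were 0 to 4 (higher 0 to 3, lower 0 to 1). The cause of these shifts was not tested. Fits that leave out genes or libraries also hold fewer of them.

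The difference between fractions gave 1 gene by DESeq2 and 0 to 3 without 1 library; the difference between lines gave 112 by DESeq2, 0 by limma-voom, 37 with the block and 0 to 3 without 1 library. EIF6 was -1.23 and passed by DESeq2 (adjusted p = 0.0149); its adjusted p over the other settings ran from 0.0884 to 0.786, and its change without 1 library from -1.61 to -0.85.

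Of the named genes, 6 changed sign under some setting, and none of them passed in the original fit. INSM1 was 0.59 by limma-voom, 0.57 with the replicate block and 0.58 with the block in H69M alone. Without 1 library at a time, the changes ran from -2.47 to 3.81 for INSM1, -3.11 to 9.29 for NEUROD1, -3.07 to 2.72 for CHGA, -0.26 to 0.38 for VIM, -1.07 to 0.42 for ITGB4 and -0.75 to 0.16 for PTK2. Changes of sign fell without sheIF6 replicate 1 or shNTC replicate 2 for INSM1 and CHGA, without sheIF6 replicate 2 for NEUROD1 and VIM, and without shNTC replicate 1 for ITGB4 and PTK2. Over all settings, list medians moved by more than the spread of their pairs in 55 cases and by less in 574. That spread is the SD of a list's own pair medians, so a list with unlike pairs could move far and count among the 574. The integrated stress response list, with a spread of 1.50, moved from -1.49 to -0.0095 without shNTC replicate 1 and was counted there. The tally is thus no measure of how stable the medians were.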
